A study of Mus musculus with 6 samples.

Results

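Imprinted genes are transcribed mainly from the copy inherited from 1 parent. In mouse embryonic hearts at E12.5, 40 imprinted genes outside the Dlk1-Meg3 domain were followed, of 30619 rows in the deposited count table. They were chosen as a list of symbols of known imprinted genes, by a rule that uses no measured value, and all 40 were found in the table. The list was nonetheless drawn up with earlier results of these data known. They were grouped by imprinted domain and by the allele each is mainly expressed from. Of these, 22 are known as paternally expressed and 13 as maternally expressed. For the other 5 (Ddc, Blcap, H13, Gnas and Inpp5f), imprinting depends on the isoform or tissue. Genes of the paternal and maternal groups can also be imprinted in some tissues only, as Ube3a and Sfmbt2 are. Not all of them need be imprinted in heart. These groups are background knowledge. A count per gene does not tell the parental alleles apart, so loss of imprinting was not measured here. The hearts were of 2 groups, with 3 poly(A) RNA libraries each. The CKO group is titled a TRIM28 conditional knockout, although its genotype label calls it a knockdown of TRIM28, and the CTR group is labelled WT. The labelled material is whole heart with its mixed cardiac cells. None of the Cre driver, the deleted exons, the strain and the number of hearts per library is given in the sources used here. Nor do they say whether each library came from embryos of its own, so p-values measure the spread between these libraries, whatever its source. The sex-linked levels given further on show that libraries of 1 group did not all hold the same mix of embryos.

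Most imprinted genes lie in clusters around an imprinting control region (ICR), a stretch of DNA that is methylated on 1 parental copy from the germ line onward. After fertilization, zinc finger proteins such as ZFP57 and ZFP445 bind the methylated copy and recruit TRIM28 (KAP1), which brings the histone methyltransferase SETDB1 and DNA methyltransferases and so protects the mark through early reprogramming. Many of these genes regulate embryonic growth: paternally expressed genes such as Igf2 tend to promote it, and maternally expressed genes such as Igf2r, Cdkn1c and Grb10 tend to restrain it.

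Trim28, the targeted gene, had 172, 314 and 165 CPM in CKO hearts, against 305, 391 and 443 CPM in CTR hearts, where CPM is the count scaled to the library's size after TMM normalization. The library labelled CKO 2 lay inside the CTR range, so its Trim28 level goes against its label, and each direction given here for CKO rests on the labels (log2 fold change -0.81, SE 0.34, adjusted p = 0.339; adjusted p = 0.0165 with limma-voom). Total counts were 34400841 to 39763233 in CKO and 36854002 to 39702929 in CTR. A ribosomal RNA row took 0.563% to 0.790% of counts in CKO and 0.126% to 0.522% in CTR. Xist, which female cells make to silence 1 of their X chromosomes, had 420.3, 0.203 and 0.101 CPM in CKO hearts, against 618, 943 and 469 CPM in CTR hearts, and the Y-linked Ddx3y had 38.1, 75.5 and 66.3 CPM in CKO hearts, against 28.9, 0 and 42.8 CPM in CTR hearts. The library labelled CKO 2 and CKO 3 were thus nearly free of Xist while every CTR library carried it, and CTR 2 had no Ddx3y count, so sex content differed within and between the groups. Cardiomyocyte markers summed to 18937 to 20129.8 CPM in CKO and 18041 to 18998 CPM in CTR. The myosin genes Myh6 (0.33, adjusted p = 0.0103) and Myl7 (0.53, adjusted p = 0.00519) were called higher among 8 tested. Of the 8, 5 had positive and 3 negative log2 fold changes. A further myosin gene, Myh7, was on the negative side and was not called (-0.23, adjusted p = 0.138). Liver markers, 1 of 5 of which was tested, summed to 0.581 to 0.690 CPM in CKO and 0.602 to 0.935 CPM in CTR. In bulk hearts, fewer cells of a type and less RNA per cell cannot be told apart.

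The promoters of 4 members, picked by hand, are shown as examples of those that hold the hexamer TGCCGC, which ZFP57 binds when its CpG is methylated. The RefSeq table of promoters (GRCm38.p6, 250 bases before to 50 bases after each start) matched 33 of the 40 members. It held no entry for H19, Cdkn1c, Peg10, Sgce, Impact, Peg13 and Trappc9. TGCCGC or its reverse complement GCGGCA, searched on both strands, was in at least 1 window of 11 of these 33 members (33.3%), namely Copg2, Grb10, Igf2, Mcts2, Mest, Nap1l5, Nnat, Plagl1, Snrpn, Zdbf2 and Zim1, and of 13.1% of all 27025 genes with a window. By window, it was in 12 of 50 for the members and in 11.6% of all 32851. The Mest windows among these 12 nearly coincide. The CpG content of the members' windows was not compared with that of all windows. A match is a description and not a binding site. Each window below runs 5′ to 3′ along the gene's own strand, with the hexamer in capitals.
Igf2 (chr7:142661222-142661521, minus strand): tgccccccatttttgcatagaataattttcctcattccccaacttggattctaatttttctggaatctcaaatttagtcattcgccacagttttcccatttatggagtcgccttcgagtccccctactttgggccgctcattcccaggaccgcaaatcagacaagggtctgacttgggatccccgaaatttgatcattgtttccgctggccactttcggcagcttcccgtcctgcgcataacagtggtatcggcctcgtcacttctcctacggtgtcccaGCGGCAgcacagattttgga
Plagl1 (chr10:13090582-13090881, plus strand): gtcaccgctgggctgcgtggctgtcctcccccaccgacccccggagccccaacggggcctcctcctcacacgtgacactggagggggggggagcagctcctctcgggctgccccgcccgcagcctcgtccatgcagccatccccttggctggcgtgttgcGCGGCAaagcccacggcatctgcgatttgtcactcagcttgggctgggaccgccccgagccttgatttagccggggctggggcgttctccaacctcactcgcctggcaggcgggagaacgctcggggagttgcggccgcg
Snrpn (chr7:60005150-60005449, minus strand): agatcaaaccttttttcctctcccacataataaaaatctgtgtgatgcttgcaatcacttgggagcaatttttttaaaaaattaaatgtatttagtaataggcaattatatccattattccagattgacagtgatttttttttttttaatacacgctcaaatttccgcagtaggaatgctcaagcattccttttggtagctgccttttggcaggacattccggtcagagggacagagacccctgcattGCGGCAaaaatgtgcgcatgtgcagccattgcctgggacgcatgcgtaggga
Mest (chr6:30737800-30738099, plus strand): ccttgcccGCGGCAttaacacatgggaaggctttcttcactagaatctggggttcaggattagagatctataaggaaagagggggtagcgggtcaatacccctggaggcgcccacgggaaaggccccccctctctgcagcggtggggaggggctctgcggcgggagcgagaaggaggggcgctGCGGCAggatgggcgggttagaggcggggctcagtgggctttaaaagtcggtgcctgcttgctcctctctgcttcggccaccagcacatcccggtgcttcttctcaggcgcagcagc

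H19, Igf2 and Mest also host microRNAs, shown because their genes lie within the transcripts measured here. The RefSeq mature sequences follow, with the seed (bases 2 to 8) in capitals. The 6 seeds all differ. Mature microRNAs carry no poly(A) tail, so their levels were not measured. The table has rows for the genes Mir335, with 26, 34 and 37 counts in CKO hearts, against 17, 22 and 17 counts in CTR hearts (0.86, adjusted p = 0.323), and Mir483, with 75, 63 and 69 counts in CKO hearts, against 42, 63 and 66 counts in CTR hearts (0.35, adjusted p = 0.615), whose reads cannot be told from those of Mest and Igf2.
mmu-miR-675-5p (H19): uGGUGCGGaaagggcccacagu
mmu-miR-675-3p (H19): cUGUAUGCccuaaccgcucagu
mmu-miR-483-5p (Igf2): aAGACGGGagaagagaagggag
mmu-miR-483-3p (Igf2): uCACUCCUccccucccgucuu
mmu-miR-335-5p (Mest): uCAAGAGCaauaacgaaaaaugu
mmu-miR-335-3p (Mest): uUUUUCAUuauugcuccugacc

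The imprinted genes covered a wide range of levels in these hearts. Per kilobase of exon, H19 stood highest, with a mean of 2653 CPM per kb in CKO and 3014 in CTR. It was followed by Mest (623 CPM per kb in CKO and 624 in CTR), Igf2r (391 CPM per kb in CKO and 417 in CTR), Grb10 (216 CPM per kb in CKO and 231 in CTR) and Cdkn1c (157 CPM per kb in CKO and 178 in CTR). At the other end were Phlda2 (0.147 CPM per kb in CKO and 0.295 in CTR) and Ascl2 (0.166 CPM per kb in CKO and 0.0258 in CTR), which act in placenta and did not pass the filter on low counts. Together the 40 genes took 1.71% to 1.93% of all counts in CKO and 1.98% to 2.01% in CTR, so the groups did not overlap in this share. H19 alone made up 0.628% to 0.667% of counts in CKO and 0.738% to 0.751% in CTR. Without H19, the share of the remaining members overlapped between the groups, through the library labelled CKO 2.

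**Figure D1:**
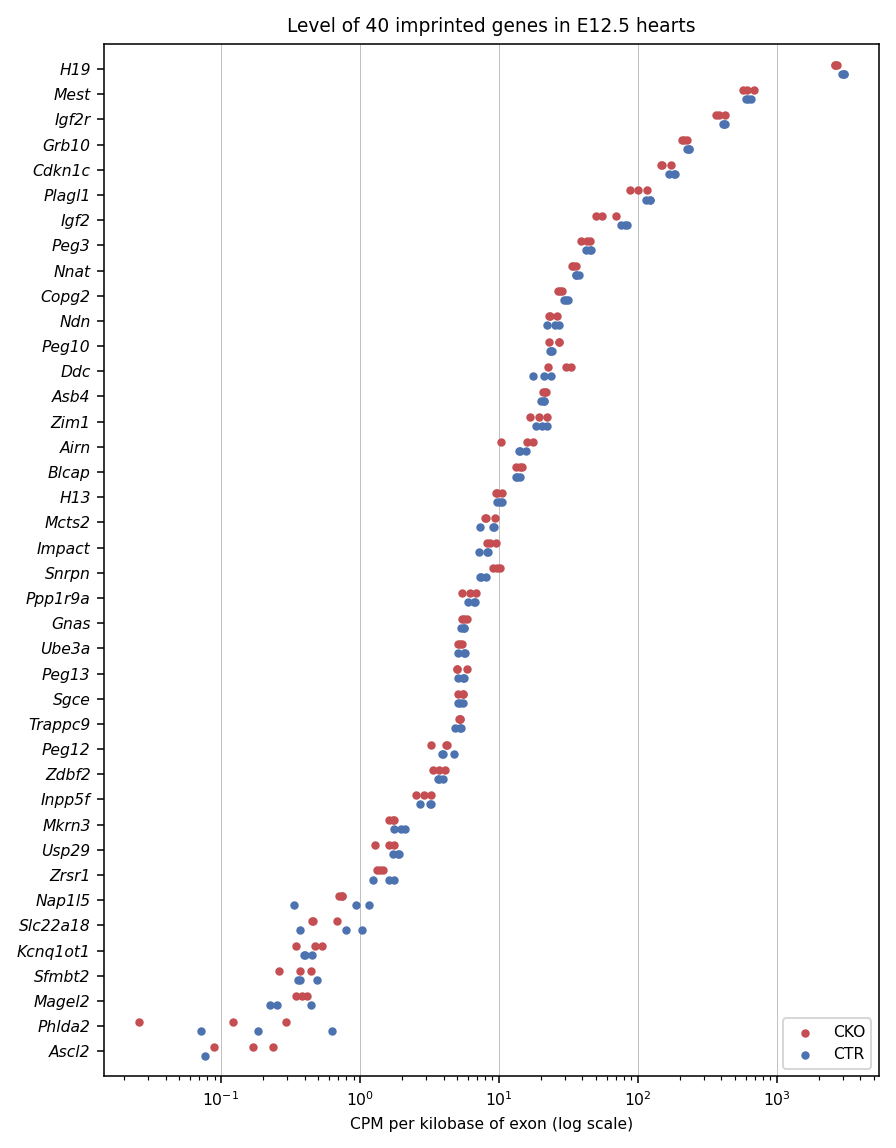
Level of each imprinted gene in CPM per kilobase of exon on a log axis, with 1 point per library (CKO above CTR, n = 3 libraries each), ordered by level. The 2 CTR libraries with 0 counts of Ascl2 have no point. H19, Mest and Igf2r are at the top and Phlda2 and Ascl2 at the bottom.

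Nearly all of the imprinted genes were short of the threshold between CKO and CTR hearts. Of the 38 that passed the filter, none was called higher and 1, the maternally expressed RNA H19, was called lower, at an adjusted p under 0.05 in edgeR's quasi-likelihood test with Benjamini-Hochberg adjustment over all 17557 tested genes. Over all tested genes 3.03% were called higher and 1.07% lower, 4.1% in either direction. Of the members, 26 of 38 had a negative log2 fold change (CKO over CTR), against 8639 of 17557 genes, and the median was -0.06, against 0.00 for all genes. Among tested genes with a CTR mean of 10 CPM or more, 54.1% were negative. The members' count depended on the fit. It was 28 of 40 without the library labelled CKO 2, 21 of 39 without CKO 1, and 20 of 38 with the ribosomal RNA share as a covariate. The median was -0.04 for the 22 paternally expressed genes (15 negative, none called), -0.09 for the 11 tested maternally expressed genes (9 negative, 1 called lower) and 0.02 for the 5 isoform-dependent genes (2 negative, none called).

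Unadjusted p-values under 0.05 were found for 7 members. H19, Igf2, Cdkn1c, Copg2, Usp29 and Plagl1 were lower in CKO and Snrpn was higher, where 7.69% of all tested genes met this threshold lower and 10.1% higher. CKO and CTR values did not overlap in 5 members that were lower in CKO (H19, Igf2, Copg2, Mkrn3 and Grb10) and in Snrpn, which was higher, where 10.6% and 11.5% of all tested genes separated in these directions. For most members the data bounded the difference. The 95% interval of the fold change lay within 1.2-fold in either direction for 18 of the 38 and within 1.5-fold for 32. The 6 with wider intervals were Igf2, Slc22a18, Nap1l5, Magel2, Ddc and Sfmbt2, and Slc22a18 alone reached beyond 2-fold.

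**Figure D2:**
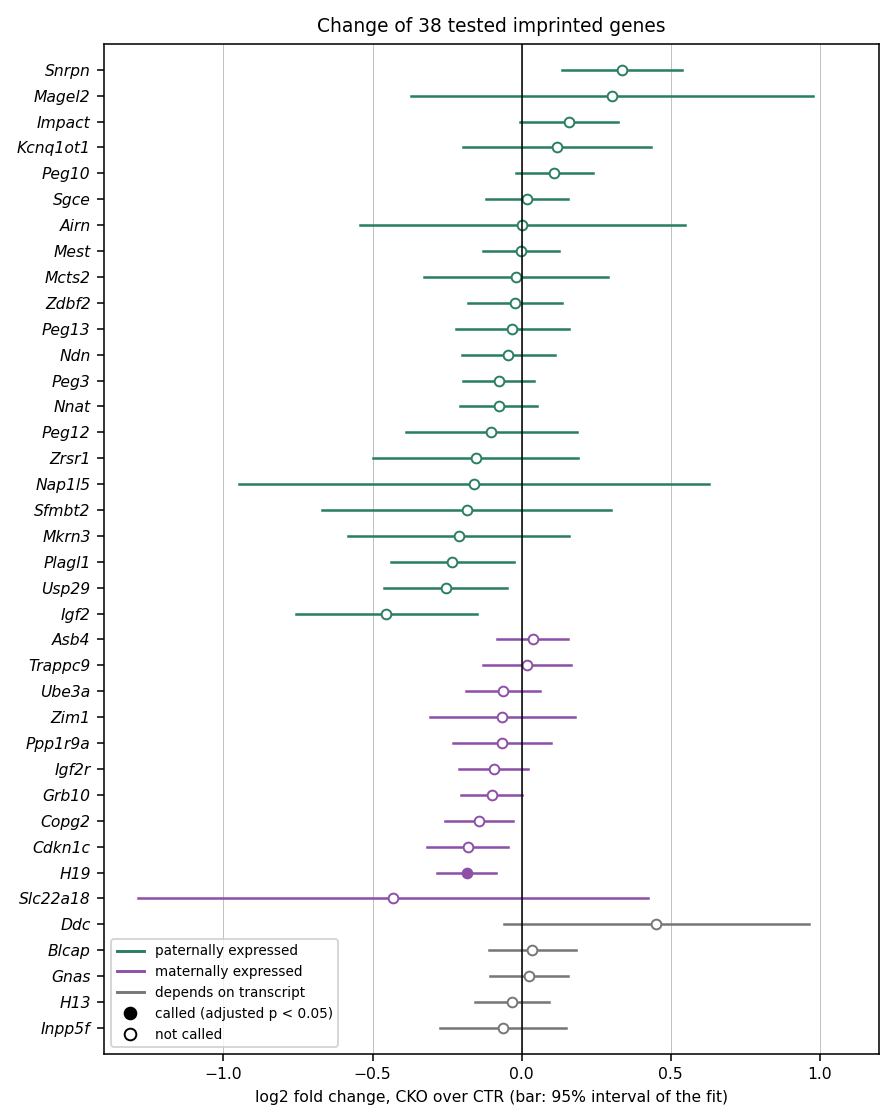
Log2 fold change of CKO over CTR for the 38 tested imprinted genes, grouped by expressed allele and ordered by value, with 95% intervals from the edgeR quasi-likelihood fit. H19 (-0.18) is the single gene called at an adjusted p under 0.05, Igf2 (-0.45) has the lowest value, and most intervals span 0.

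The Igf2-H19 domain held the single call. H19, an untranslated RNA made from the maternal copy (chr7:142575529-142578143, minus strand, mm10), had 6417, 6665 and 6497 CPM in CKO hearts, against 7481, 7499.7 and 7266 CPM in CTR hearts. All 3 CKO values lay below all 3 CTR values, and the means were 6526 ± 126 CPM in CKO hearts and 7416 ± 129.96 CPM in CTR hearts (SD, n = 3 each). H19 fell (log2 fold change -0.18, SE 0.047, adjusted p = 0.0297), which is a small difference measured with little spread. The call rested on single libraries: H19 was called without CKO 1 and without the library labelled CKO 2, but not without CKO 3 (adjusted p = 0.166), CTR 1 (adjusted p = 0.126), CTR 2 (adjusted p = 0.110) or CTR 3 (adjusted p = 0.0636), while the log2 fold change stayed between -0.20 and -0.18. H19 was also not called with the replicate number as a block (-0.18, adjusted p = 0.0662), with Y-linked expression (-0.17, adjusted p = 0.155) or the ribosomal RNA share as a covariate (-0.21, adjusted p = 0.408), or without robust dispersion (-0.18, adjusted p = 0.0830). Over all alternatives its adjusted p ran from 3.95e-06 to 0.408.

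Igf2, the paternally expressed fetal growth factor (chr7:142650766-142666816, minus strand), had 288, 400.4 and 315 CPM in CKO hearts, against 476, 433 and 464 CPM in CTR hearts. The CKO libraries lay below the CTR libraries without overlap, and the library labelled CKO 2 was the nearest to them. The difference did not pass the test (log2 fold change -0.45, SE 0.12, adjusted p = 0.123; 95% interval -0.76 to -0.15), but did when the library labelled CKO 2 was left out (-0.60, SE 0.057, adjusted p = 6.66e-08). Igf2 was also called lower with DESeq2 (adjusted p = 0.0465), limma-voom (adjusted p = 0.00834), edgeR without robust dispersion (adjusted p = 0.00860) and no filter on low counts (adjusted p = 3.95e-11). The 2 genes of this domain are expressed from opposite parental copies and share enhancers, and both values were lower in CKO. The log2 ratio of H19 to Igf2 was 4.48, 4.06 and 4.36 in CKO hearts and 3.97, 4.11 and 3.97 in CTR hearts. It was higher in CKO 1 and CKO 3 than in every CTR library and lay within the CTR range in the library labelled CKO 2.

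Igf2os, an RNA antisense to Igf2, had 1168, 1461 and 1306 counts in CKO hearts, against 1910, 1805 and 1658 counts in CTR hearts. It fell (log2 fold change -0.37, SE 0.092, adjusted p = 0.0290), and no CKO value reached the CTR range. Leaving out 1 library kept this call only without the library labelled CKO 2 (1 of 6 fits), and neither covariate fit called it (adjusted p = 0.320 with the ribosomal RNA share and adjusted p = 0.151 with Y-linked expression). The sources used here do not say whether the counting used strand, so reads of Igf2 and Igf2os cannot be told apart where they overlap. Of the markers listed for other cell types, skeletal muscle genes, in which H19 and Igf2 are known to be abundant, summed to 17.1 to 19.1 CPM in CKO and 24.6 to 28.8 CPM in CTR, with 3 of 5 markers tested and Tnni2 called lower. Tnni2 made up most of this sum, with means of 13.6 CPM in CKO and 20.6 CPM in CTR. It lies close to H19 on the same chromosome (chr7:142441808-142444410). The other tested skeletal muscle markers were not called, and the rest did not pass the filter on low counts. Endothelial markers summed to 1037 to 1214 CPM in CKO and 1241 to 1308 CPM in CTR, with Cdh5, Kdr and Tek called lower among 7 tested. Mesenchymal markers summed to 3291 to 3992 CPM in CKO and 3193 to 3816 CPM in CTR, with Postn called lower among 7. Of these 7, 5 had negative and 2 positive log2 fold changes, and 1 gene was higher in CKO without overlap. Smooth muscle markers summed to 2142 to 2602 CPM in CKO and 1509 to 1533 CPM in CTR, with Acta2, Myh11 and Cnn1 called higher among 4, and macrophage markers to 88.6 to 101 CPM in CKO and 77.3 to 82.2 CPM in CTR, with C1qa and C1qb called higher among 5. Erythroid markers summed to 979 to 1096 CPM in CKO and 1093 to 1915 CPM in CTR, with all 7 values negative and none called (smallest p-values in Alas2, -0.59, adjusted p = 0.330, and Hbb-bt, -0.56, adjusted p = 0.391). No gene was called among the tested epicardial (6), neural (5), lung and foregut (2) or liver (1) markers. Outside the neural list, the smallest p-values belonged to Upk3b (-0.12, adjusted p = 0.277) and Wt1 (0.17, adjusted p = 0.353) of epicardium, Krt8 (0.81, adjusted p = 0.142) and Epcam (-0.14, adjusted p = 0.952) of foregut epithelium, and Ttr of liver (-0.19, adjusted p = 0.916). The part of these cell types in the lower H19 was not tested.

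**Figure D3:**
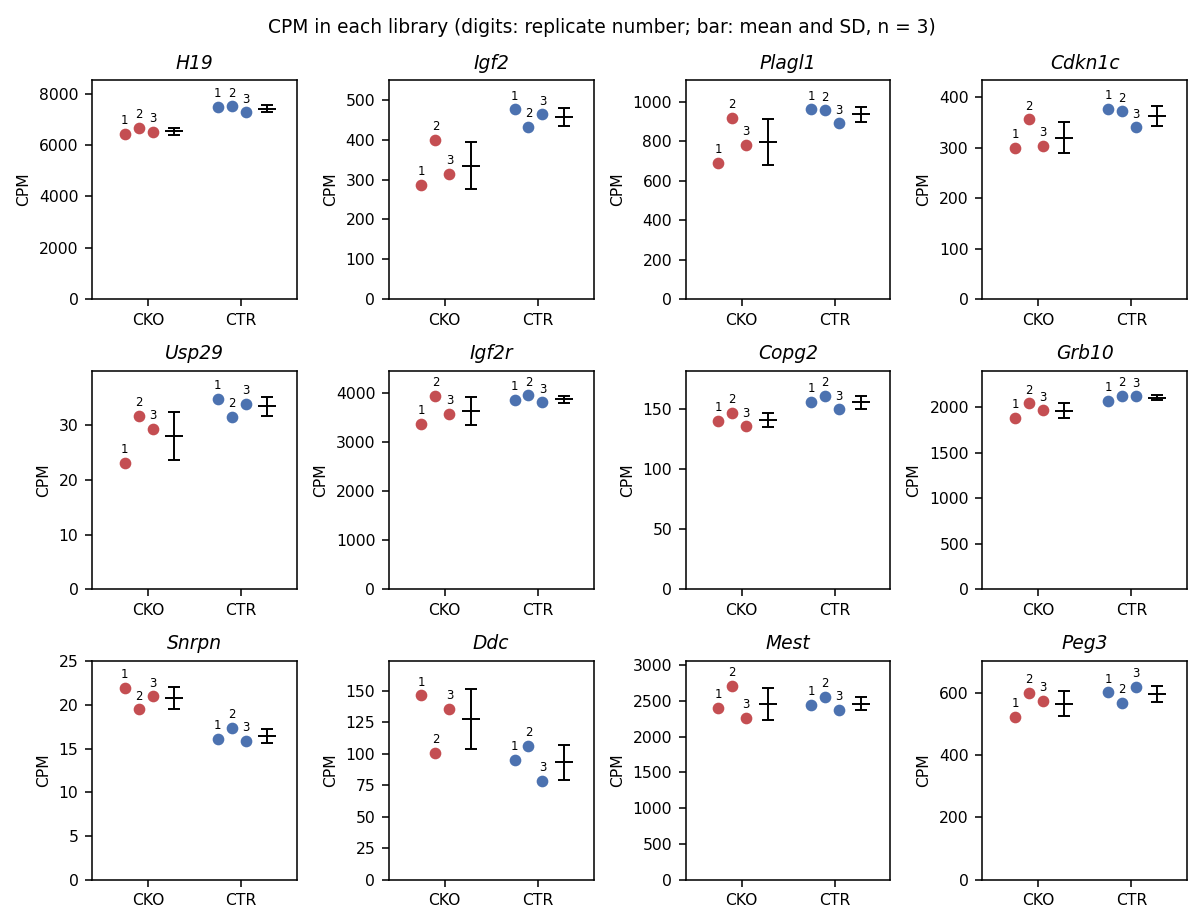
CPM in each library for selected imprinted genes, CKO left of CTR. Numbered points are the 3 libraries of each group, and the black mark beside them is their mean with SD. H19 and Igf2 separate with CKO lower and Snrpn with CKO higher, while Mest overlaps between the groups.

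Plagl1 is a paternally expressed zinc finger transcription factor that restrains proliferation and is known as a regulator of other imprinted genes (chr10:13060504-13131694, plus strand). It had 690.4, 918 and 779 CPM in CKO hearts, against 960.4, 955 and 889 CPM in CTR hearts. CKO 1 and CKO 3 lay below the CTR range and the library labelled CKO 2 inside it. The difference did not pass the test (log2 fold change -0.23, SE 0.092, adjusted p = 0.222), whereas leaving out the library labelled CKO 2 gave a call (-0.35, SE 0.056, adjusted p = 0.000139). DESeq2 (adjusted p = 0.0441) and the fit with no filter on low counts (adjusted p = 2.26e-05) also called it lower.

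In the Kcnq1ot1 domain, a paternally expressed long RNA, Kcnq1ot1, is known to silence neighbours on the same chromosome. Cdkn1c, the maternally expressed inhibitor of cyclin-dependent kinases (chr7:143458339-143461050, minus strand), had 299.9, 356 and 304 CPM in CKO hearts, against 376, 371 and 339.8 CPM in CTR hearts. CKO 1 and CKO 3 lay below all CTR libraries and the library labelled CKO 2 within them (log2 fold change -0.18, SE 0.065, adjusted p = 0.136), and Cdkn1c was called lower without that library (-0.27, SE 0.055, adjusted p = 0.00206) and with no filter on low counts (adjusted p = 0.0116). Kcnq1ot1 had 32.5, 49.3 and 44.3 CPM in CKO hearts, against 41.8, 37.3 and 36.9 CPM in CTR hearts. Its values overlapped, with CKO 1 the lowest of all 6 libraries and the other CKO libraries the highest (log2 fold change 0.12, SE 0.14, adjusted p = 0.743). The log2 ratio of Kcnq1ot1 to Cdkn1c was -3.19, -2.84 and -2.76 in CKO hearts and -3.15, -3.30 and -3.18 in CTR hearts, and CKO 1 stood inside the CTR range. Kcnq1, the potassium channel gene that Kcnq1ot1 overlaps in antisense, did not pass the test (-0.29, adjusted p = 0.142).

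The remaining listed members of that domain had few counts. Slc22a18, a membrane transporter gene, had 28, 27 and 46 counts in CKO hearts, against 25, 52 and 66 counts in CTR hearts, with overlapping groups and a 95% interval of -1.29 to 0.42 on the log2 scale. Phlda2, a growth-restraining gene of placenta, had 5, 1 and 13 counts in CKO hearts, against 28, 8 and 3 counts in CTR hearts. Ascl2, a transcription factor of the trophoblast, had 14, 5 and 11 counts in CKO hearts, against 5, 0 and 0 counts in CTR hearts. Phlda2 and Ascl2 did not pass the filter on low counts, so neither was tested.

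Igf2r, the maternally expressed receptor that clears IGF2 into lysosomes, and Airn, the paternally expressed antisense RNA that silences it, overlap on chromosome 17 (chr17:12682406-12769664, minus strand, and chr17:12741311-12860136, plus strand). Igf2r had 3382, 3946 and 3585 CPM in CKO hearts, against 3863, 3959 and 3818 CPM in CTR hearts, with the library labelled CKO 2 within the CTR values and the other CKO libraries below (log2 fold change -0.09, SE 0.055, adjusted p = 0.409; without the library labelled CKO 2 -0.16, SE 0.049, adjusted p = 0.0443). Airn had 37.4, 63.3 and 56.9 CPM in CKO hearts, against 50.3, 51.1 and 56.0 CPM in CTR hearts. CKO 1 was the lowest library and the library labelled CKO 2 the highest, so the CKO values enclosed all CTR values (log2 fold change 0.0029, SE 0.21, adjusted p = 0.997). The log2 ratio of Airn to Igf2r overlapped between the groups, at -6.48, -5.95 and -5.96 in CKO hearts and -6.25, -6.26 and -6.08 in CTR hearts. Without strand, reads of the far more abundant Igf2r may be counted in the Airn row where they overlap, so the Airn level and this ratio are uncertain.

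Grb10, a maternally expressed adaptor that dampens insulin and IGF signalling, had 1880.3, 2039 and 1964 CPM in CKO hearts, against 2071, 2120.0 and 2117 CPM in CTR hearts. The groups did not overlap, but the difference was small and did not pass the test (log2 fold change -0.10, SE 0.049, adjusted p = 0.288). Ddc, the neighbouring gene for aromatic amino acid decarboxylase, is known for a paternally expressed isoform in the developing heart. It had 146, 101 and 136 CPM in CKO hearts, against 94.9, 106 and 78.6 CPM in CTR hearts. CKO 1 and CKO 3 lay above all CTR libraries and the library labelled CKO 2 within them (log2 fold change 0.45, SE 0.19, adjusted p = 0.334), and Ddc was called higher without that library (0.60, SE 0.121, adjusted p = 0.0319) and with edgeR without robust dispersion (adjusted p = 0.0395). The log2 ratio of Grb10 to Ddc was 3.68, 4.33 and 3.85 in CKO hearts and 4.44, 4.31 and 4.74 in CTR hearts, and the groups overlapped through the library labelled CKO 2.

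**Figure D4:**
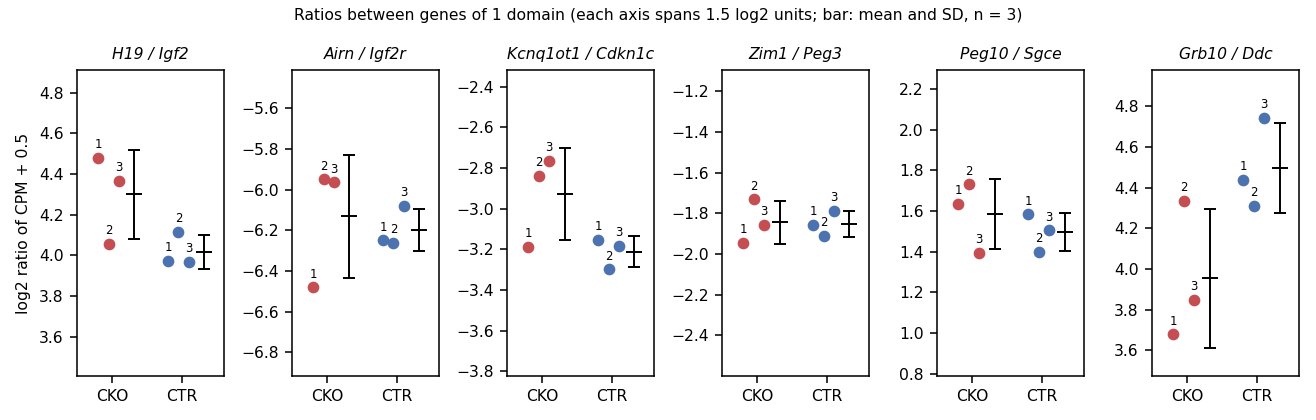
Log2 ratio of CPM between 2 genes of the same domain in each library (0.5 CPM added to each gene), CKO left of CTR, for 6 gene pairs. Points are libraries and the black mark is their mean with SD. CKO and CTR overlap in all 6 pairs, with the CKO libraries spread more widely than the CTR libraries.

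In the Peg3 domain, Peg3, a paternally expressed zinc finger gene, had 521, 599 and 573 CPM in CKO hearts, against 601, 566 and 619 CPM in CTR hearts, and Zim1, its maternally expressed neighbour, had 135, 180.0 and 158 CPM in CKO hearts, against 166, 150.0 and 179 CPM in CTR hearts. Both overlapped between the groups (Peg3 -0.08, adjusted p = 0.540, and Zim1 -0.06, adjusted p = 0.830). Usp29, a paternally expressed ubiquitin protease gene that starts beside Peg3, had 23.1, 31.6 and 29.3 CPM in CKO hearts, against 34.8, 31.5 and 33.9 CPM in CTR hearts. CKO 1 and CKO 3 lay below all CTR libraries and the library labelled CKO 2 just inside them (log2 fold change -0.25, SE 0.099, adjusted p = 0.170), and Usp29 was called lower without that library (-0.35, SE 0.097, adjusted p = 0.0226). In all 3 genes CKO 1 was the lowest of the 6 libraries.

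The Peg10-Sgce domain on chromosome 6 showed no call. Peg10, a gene derived from a retrotransposon that is needed in placenta, had 182, 180.0 and 154 CPM in CKO hearts, against 162, 156 and 159 CPM in CTR hearts. CKO 1 and the library labelled CKO 2 lay above the CTR values and CKO 3 below (log2 fold change 0.11, SE 0.062, adjusted p = 0.374). Sgce, the paternally expressed epsilon-sarcoglycan gene, was at 0.02, adjusted p = 0.935. Its maternally expressed neighbours were Asb4, a substrate receptor of ubiquitin ligases with a known vascular role (0.04, adjusted p = 0.810), and Ppp1r9a, an actin-binding phosphatase regulator (-0.07, adjusted p = 0.740). The values of all 3 overlapped between the groups.

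Mest, the paternally expressed mesoderm-specific transcript of hydrolase type, was the second most abundant member per kilobase and had 2406, 2711 and 2260.2 CPM in CKO hearts, against 2449, 2560.4 and 2374 CPM in CTR hearts. The CKO libraries spread around the CTR libraries (log2 fold change -0.0013, SE 0.060, adjusted p = 0.995, 95% interval -0.13 to 0.13). Copg2, a coat protein gene that overlaps Mest tail to tail and is maternally expressed in part, had 140.12, 147 and 135 CPM in CKO hearts, against 156, 161 and 149.7 CPM in CTR hearts, without overlap between the groups (log2 fold change -0.14, SE 0.055, adjusted p = 0.159). Reads of the stretch that these genes share cannot be told apart without strand. Nap1l5, a retrogene in an intron of Herc3, had 50, 47 and 52 counts in CKO hearts, against 86, 24 and 65 counts in CTR hearts, with CTR values on both sides of the CKO values.

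In the Snrpn domain, the mouse counterpart of the Prader-Willi and Angelman region, Snrpn, a paternally expressed splicing protein gene (chr7:59982495-60140219, minus strand), had 22.0, 19.5 and 20.996 CPM in CKO hearts, against 16.1, 17.4 and 15.9 CPM in CTR hearts. All CKO values were above all CTR values, and the difference missed the threshold (log2 fold change 0.34, SE 0.096, adjusted p = 0.0546; without the library labelled CKO 2 0.38, SE 0.103, adjusted p = 0.0203). Snrpn was also called higher with DESeq2 (adjusted p = 0.0297), with no filter on low counts (adjusted p = 0.0423) and with a filter of 1 CPM in 3 libraries (adjusted p = 0.0458). The Snrpn row shares exons with a row for the predicted gene Gm38393 (0.23, adjusted p = 0.502), so reads may be split between them, and both are uncertain. Snhg14, the paternal RNA that continues from Snrpn and runs antisense to Ube3a, was higher without overlap and was not called (log2 fold change 0.35, SE 0.12, adjusted p = 0.106). Its row overlaps the rows of Gm38393 and of the more abundant Ube3a. Reads may be shared between them, so the Snhg14 level is uncertain too.

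None of the other listed members of this domain was called. Atp10a, an imprinted gene near Ube3a that is not a listed member, was called higher (0.56, adjusted p = 0.0297) and is described further on. Ndn, the paternally expressed necdin gene, had 96.8, 86.2 and 84.3 CPM in CKO hearts, against 81.9, 99.7 and 94.0 CPM in CTR hearts, and the groups overlapped (-0.04, adjusted p = 0.829). Ube3a, the ubiquitin ligase gene that is maternally expressed in neurons, had 108, 106 and 111 CPM in CKO hearts, against 105, 115 and 119 CPM in CTR hearts, also with overlap (-0.06, adjusted p = 0.655). The other 3 paternal genes, all without introns, were low. Mkrn3, a makorin RING finger gene, had 4.39, 4.45 and 4.14 CPM in CKO hearts, against 5.42, 4.52 and 5.05 CPM in CTR hearts, with CKO below CTR in every library and no call (-0.21, adjusted p = 0.601). Peg12 (-0.10, adjusted p = 0.778) and Magel2, a MAGE family regulator of protein ubiquitination (0.30, adjusted p = 0.703), overlapped between the groups.

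The genes of the smaller domains were all short of the threshold. Impact, a paternally expressed regulator of translation under stress, had 44.5, 42.0 and 49.0 CPM in CKO hearts, against 42.0, 37.0 and 42.6 CPM in CTR hearts, with CKO 1 and CKO 3 above all CTR libraries and the library labelled CKO 2 within them (log2 fold change 0.16, SE 0.078, adjusted p = 0.303). Nnat, the neuronatin gene, lies in an intron of Blcap. Nnat had 61.6, 62.4 and 66.0 CPM in CKO hearts, against 69.5, 65.2 and 65.7 CPM in CTR hearts, with overlap (-0.08, adjusted p = 0.579), and Blcap was at 0.04, adjusted p = 0.851. Likewise the retrogene Mcts2 (-0.02, adjusted p = 0.972) sits within H13, a signal peptide peptidase gene (-0.03, adjusted p = 0.854), Zrsr1 (-0.15, adjusted p = 0.702) within Commd1 (0.11, adjusted p = 0.785), and Peg13 (-0.03, adjusted p = 0.912) within Trappc9 (0.02, adjusted p = 0.935). Neither these genes nor their hosts separated between the groups.

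Gnas, the gene of the stimulatory G protein alpha subunit, had 62.8, 65.7 and 60.4 CPM in CKO hearts, against 59.7, 62.9 and 63.1 CPM in CTR hearts, with full overlap (0.02, adjusted p = 0.90031). Its isoforms have opposite imprints and were counted in 1 row, so a shift between isoforms would not show here. Inpp5f, a phosphoinositide phosphatase gene with a paternal isoform, was at -0.06, adjusted p = 0.821. Zdbf2 was at -0.02, adjusted p = 0.928. Sfmbt2, a Polycomb family gene that is imprinted in placenta, was low, with 87, 140 and 133 counts in CKO hearts, against 135, 173 and 122 counts in CTR hearts and overlapping groups (-0.18, adjusted p = 0.756).

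The 3 CKO libraries did not stand in one place for these genes. CKO 1 held the lowest of the 6 CPM values in 17 of the 38 tested members (44.7%), where it was the lowest library for 19.8% of all tested genes. The library labelled CKO 2 was the lowest in 1 member (2.6%, against 16.9% of all tested genes). Among the CKO libraries, the library labelled CKO 2 was the nearest to the CTR mean in 17 of the 38 members and CKO 1 in 12, and it was the nearest for 39.6% of all tested genes. Without the library labelled CKO 2, 6 members were called lower (Cdkn1c, H19, Igf2, Igf2r, Plagl1 and Usp29) and 2 higher (Ddc and Snrpn), where 2.97% of all tested genes were then called lower and 5.57% higher. Leaving out CKO 3, CTR 1, CTR 2 or CTR 3 left no member called, and leaving out CKO 1 left H19.

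**Figure D5:**
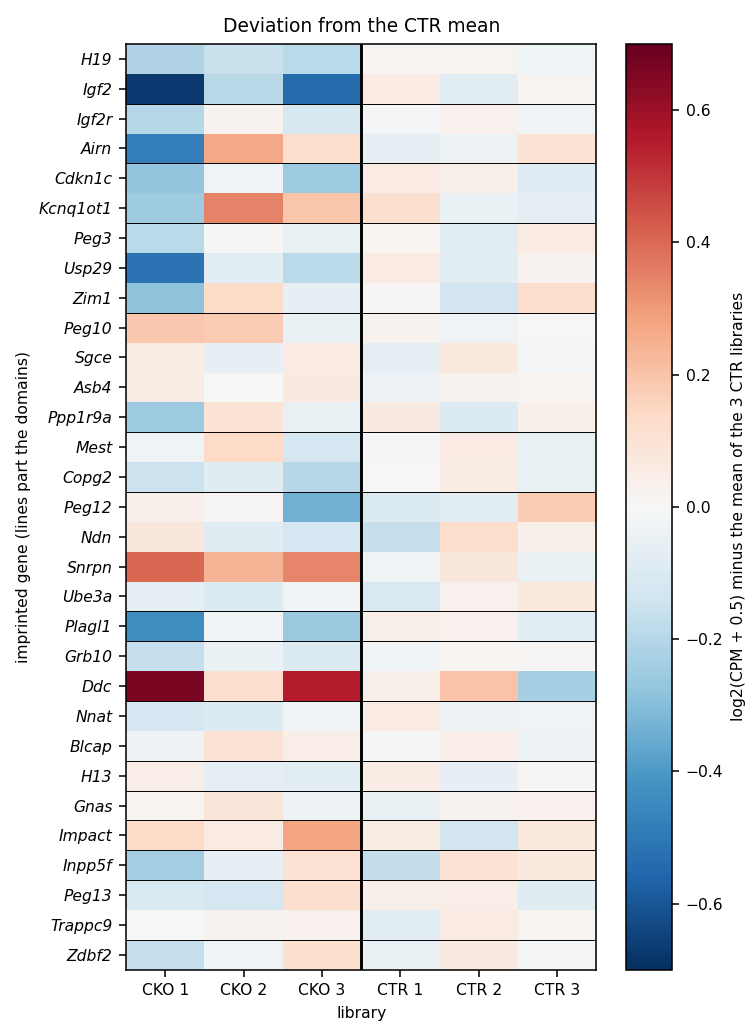
Log2 deviation of each library from the CTR mean for the 31 tested imprinted genes at 10 CPM or more, grouped by domain, CKO libraries before CTR libraries. CKO 1 lies below the CTR mean in many genes, among them Igf2 (-0.67), Airn (-0.48) and Cdkn1c (-0.27), where the library labelled CKO 2 lies at -0.19, 0.27 and -0.03.

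Genes that act on imprints or on IGF signalling were read as lists. Of 15 tested imprint maintenance factors, 2 were higher and 2 lower, where 3.03% of all tested genes were called higher and 1.07% lower. The median log2 fold change was -0.13, against 0.00 for all genes, and CKO and CTR values did not overlap in 10 factors that were lower and 3 that were higher, where 10.6% and 11.5% of all tested genes separated in these directions. Zfp57, which binds methylated ICRs, rose (log2 fold change 0.28, SE 0.076, adjusted p = 0.0390), with 50.2, 51.0 and 57.3 CPM in CKO hearts, against 44.7, 39.5 and 45.9 CPM in CTR hearts. Zfp568, a zinc finger repressor of a placental Igf2 promoter, rose too (log2 fold change 0.40, SE 0.070, adjusted p = 0.00345). Uhrf1, which guides maintenance methylation to replicating DNA, fell (log2 fold change -0.28, SE 0.053, adjusted p = 0.00380), as did Atf7ip, a partner of SETDB1 (log2 fold change -0.26, SE 0.067, adjusted p = 0.0336). Zfp568 and Uhrf1 were called in all 6 fits that left out 1 library, Zfp57 in 2 and Atf7ip in 1. In the fits without 1 library the highest adjusted p was 0.248 for Zfp57 and 0.176 for Atf7ip. None of these 4 genes was called with the ribosomal RNA share or Y-linked expression as a covariate (lowest adjusted p = 0.0524, for Zfp568).

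Of 17 tested genes of the IGF axis, a list of Igf1, receptors, adaptors, IGF binding proteins, their proteases and Igf2 mRNA-binding proteins, Pappa2 was called higher (5.88%, against 3.03% of all tested genes) and none lower (median -0.01). Pappa2, a protease that frees IGF from its binding proteins, had 4.06, 3.08 and 4.35 CPM in CKO hearts, against 1.46, 1.32 and 1.68 CPM in CTR hearts, without overlap (log2 fold change 1.37, SE 0.25, adjusted p = 0.00331), and was called in all 6 fits that left out 1 library, though not with the ribosomal RNA share as a covariate (adjusted p = 0.210). In the Dlk1-Meg3 domain, which is not among the 40 genes, all 6 tested genes had positive values (median 0.56), and 1, the maternally expressed RNA Mirg, was called higher (log2 fold change 0.82, SE 0.13, adjusted p = 0.00108). Mirg was called in all 6 fits that left out 1 library and with Y-linked expression as a covariate (adjusted p = 0.022), though not with the ribosomal RNA share (adjusted p = 0.403). The difference between the domains was not tested.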

How the data were processed

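The 6 poly(A) RNA libraries (3 CKO, 3 CTR, of 500 ng of total RNA each, per the labels' protocols) were analysed from the raw counts per gene that the authors deposited. The submitters' processing notes name mm10 as the genome. The aligner, counter, strand setting and rule for reads shared by 2 genes were not given in the sources used here. Of 30619 rows, 30151 matched 1 gene of GENCODE M21, which gave coordinates and exon lengths.

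Here the counts were filtered with filterByExpr (at least 10 counts, 15 in total), scaled by TMM and tested with edgeR 4.0.16 (R 4.3.3; glmQLFit, robust, not the legacy fit). P-values were two-sided and adjusted by Benjamini-Hochberg over 17557 genes, and a call needs an adjusted p under 0.05. SEs were derived from the quasi-likelihood F. CPM per kilobase used the union of exons. The fit was tested on simulated counts. DESeq2 1.42.0, limma 3.58.1 (voom), other scalings and filters, 3 other designs and fits without each library were alternatives. With 3 libraries against 3, an exact permutation test cannot go below p = 0.10. Replicates differed by more than sampling noise, so none was counted as a copy. The members, lists and tests were chosen with earlier results of these data known, and all members, every called gene of the other lists (the 2 of smallest p where none was called), overlapping host genes and Trim28 were to be named. Snhg14, Igf2os and Gm38393 were added because they overlap a member or its reads. Myh7 was added because it is a myosin gene of the cardiomyocyte list. The genes of smallest p in the neural marker list are not reported here.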

Additional observations from a re-analysis of the deposited data

How the results depend on the processing

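Across the other settings, the signs of H19, Igf2, Snrpn, Plagl1 and Cdkn1c held, and of the 38 members' log2 fold changes 733 values stayed on their side of the threshold, 18 newly passed it and 9, all of H19, no longer did. The members called higher and lower numbered 0 and 1 under RLE, upper-quartile and no scaling factors, with the legacy edgeR fit (chosen after seeing the data), and without erythroid and mitochondrial genes. They were 1 (Snrpn) and 3 (H19, Igf2, Plagl1) with DESeq2, where 747 and 321 genes were called in all, 0 and 2 (H19, Igf2) with limma-voom (495 and 182 genes), 1 (Ddc) and 1 (Igf2) without robust dispersion (565 and 195), 1 (Snrpn) and 4 (Cdkn1c, H19, Igf2, Plagl1) with no filter on low counts (1251 genes, 863 and 388), and 1 (Snrpn) and 1 (H19) with a filter of 1 CPM in 3 libraries (592 and 218). No member was called with the ribosomal RNA share as a covariate (56 genes, 53 higher and 3 lower; H19 adjusted p = 0.408), with Y-linked expression as a covariate (310 genes, 273 higher and 37 lower; H19 adjusted p = 0.155) or at an adjusted p under 0.01 (281 genes, 247 higher and 34 lower). Each CKO library held a larger ribosomal RNA share than any CTR library, so that covariate and the group cannot be told apart.

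With the replicate number as a block, H19 was not called (-0.18, adjusted p = 0.0662), 0 members were called in either direction, and 676 genes were called. Same-numbered libraries deviated with correlations of -0.0022, 0.0167 and 0.0014, so no pairing by replicate number was visible. The labels do not say whether libraries of the same number were paired, and these correlations cannot exclude it.

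Without 1 library, the genes called ranged from 301 to 1552 (higher 255 to 1012, lower 39 to 540), the members called higher from 0 to 2 and lower from 0 to 6. The highest counts came without the library labelled CKO 2, in which Trim28 was near its CTR level. Depth limits Phlda2, Ascl2, Slc22a18, Nap1l5 and Magel2, each under 100 counts in every library.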

Other observations

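Among 37 further imprinted genes, 36 were in the table and 31 were tested, of which 3 (9.68%) were called higher and none lower, where 3.03% of all tested genes were called higher and 1.07% lower (median log2 fold change 0.02). Klf14, a maternally expressed transcription factor gene without introns that lies distal to Mest (chr6:30956023-30959078, minus strand, mm10), had 270, 227 and 295 counts in CKO hearts, against 105, 101 and 105 counts in CTR hearts. Every CKO value was above every CTR value, and Klf14 rose (log2 fold change 1.42, SE 0.18, adjusted p = 0.000142), with a call in all 6 fits that left out 1 library and with either covariate. Atp10a, a lipid flippase gene near Ube3a, rose (log2 fold change 0.56, SE 0.14, adjusted p = 0.0297), and so did Qpct, which encodes glutaminyl cyclase (log2 fold change 0.31, SE 0.079, adjusted p = 0.0337). Leave-one-out fits called Atp10a in 2 and Qpct in 1 of 6 cases, with adjusted p up to 0.218 and 0.185, and neither was called with the ribosomal RNA share or Y-linked expression as a covariate.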
